A study of Mus musculus with 42 samples.

Results

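Tributyltin (TBT) was set against rosiglitazone (ROSI) in the RNA of mouse marrow stromal cells, using the 6 libraries labelled TBT and the 6 labelled ROSI, 12 of the 42 samples of the series. The cells were undifferentiated mesenchymal stromal cells grown out of the long bones of C57BL/6 mice, obtained from a supplier and used at passage 9 to 10, and no agent that induces adipocyte formation is named for the RNA samples. After 24 h of attachment at 15000 cells per cm2 the cultures received TBT at 50 nM or ROSI at 100 nM for 48 h. The 2 compounds were thus given at different doses, and each difference below is one between these doses. Cells given 0.1% DMSO or the RXR agonist AGN194204 at 100 nM, 6 libraries each, appear only as levels set beside those of TBT and ROSI cells and as part of the estimate of the spread. The labels do not say whether the 6 libraries of a group came from separate cultures, so the p-values measure the spread between these libraries, which may be technical. The age and number of the donor mice are not given in the sources used here.

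TBT is an organotin compound that binds both the retinoid X receptor (RXR) and the fat cell regulator PPARγ, whereas ROSI, a thiazolidinedione, is a ligand of PPARγ. RXR pairs on DNA with other nuclear receptors. In the pairs with PPARγ and with the liver X receptors (LXR), which sense oxysterols and induce cholesterol export, a ligand of RXR can switch on the pair without a ligand of the partner, whereas the pairs with the retinoic acid, vitamin D and thyroid hormone receptors are classically driven by the partner's own ligand. Marrow stromal cells can become fat cells or bone-forming cells, and PPARγ drives the fat cell fate. The comparison asks what a ligand of RXR and PPARγ does to these cells beyond a ligand of PPARγ.

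The libraries held 4023214 to 5347365 gene counts in TBT cells and 4047841 to 4601891 in ROSI cells, and the totals did not differ beyond their spread (exact two-sided permutation test over 924 arrangements, p = 0.602). Spike-in RNA (ERCC) amounted to 0.407 ± 0.0433 counts per 100 gene counts in TBT libraries and 0.446 ± 0.021 in ROSI libraries (SD, n = 6 each; exact permutation p = 0.0455). Without TBT replicate 2, the deepest library, the TBT mean was 0.423 ± 0.0197 (exact permutation p = 0.0974). Stromal cell genes were present in both groups. Levels are given as counts per 1000000 counts of the tested genes in a library (CPM), with libraries scaled to the bulk of the genes (TMM scaling). The receptor gene Pdgfrb averaged 369 ± 10.2 CPM in TBT cells and 259 ± 16.9 CPM in ROSI cells. Ly6a averaged 108 ± 14.1 and 79.9 ± 7.67 CPM. Cd44 was lower in TBT cells, at 301 ± 7.55 and 396 ± 10.5 CPM. Of 22 stem and stromal cell markers tested, 9 were called higher and 7 lower in TBT than in ROSI cells. Most defining genes of other cell types had few counts: over the 6 libraries of a group, the pan-leukocyte gene Ptprc had 2 counts in TBT cells and 0 in ROSI cells, the endothelial cadherin Cdh5 had 2 and 10, and the epithelial gene Epcam had 4 and 4. Counts summed over a group were at most 19 for the 8 endothelial markers of 10 that were too low to be tested. They were at most 13 for 7 of 8 erythroid markers and at most 7 for 16 macrophage and blood cell markers. The neural gene Tubb3 had 41 and 71 and was the highest of 12 such epithelial and neural markers. The endothelial receptor gene Flt1 was tested, at 4.18 ± 1.09 CPM in TBT cells and 6.33 ± 1.8 CPM in ROSI cells (adjusted p = 0.0507). It was called lower without TBT replicate 2 or without ROSI replicate 3 or 6. Of 21 macrophage and blood cell markers 4 had enough counts to be tested. Among these Mcpt8, a basophil protease, averaged 0.895 ± 0.595 CPM in TBT cells and 4.9 ± 2.75 CPM in ROSI cells (log2 fold change -2.40 ± 0.41, adjusted p = 1.55e-05). The lipopolysaccharide coreceptor gene Cd14 averaged 49.7 ± 5.11 and 41.1 ± 2.81 CPM (log2 fold change 0.27 ± 0.07, adjusted p = 0.0024).

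Of 12529 genes tested with edgeR's quasi-likelihood method, 1908 (15.2%) were higher in TBT than in ROSI cells and 1690 (13.5%) were lower, both at a Benjamini-Hochberg adjusted p under 0.05, in all 3598 genes (28.7%). Log2 fold changes are TBT minus ROSI unless another pair is named and carry their standard error. Genes said to rise or fall are higher or lower in TBT than in ROSI cells, whatever their level in DMSO cells. CPM values are means ± SD over 6 libraries unless the lowest, median and highest are given. Most differences were small: the median size among called genes was 0.263 on the log2 scale and 2909 of them were under 0.5, while 129 genes (1.03%) were higher and 33 genes (0.263%) lower by at least 2-fold. All 6 TBT libraries lay above all 6 ROSI libraries for 850 genes (6.78%) and below them for 686 (5.48%). The shares of genes higher, lower and without overlap over all tested genes are the background for the counts of every list below. The median log2 fold change over all tested genes was -0.00276. When libraries were scaled to the ERCC spike-ins in place of the bulk of the genes (TMM scaling), that median moved up by 0.13, with 2426 genes higher and 172 lower, or 93.4% of calls in the higher direction against 53% with TMM scaling. Every direction given below is therefore relative to the bulk of the genes. Because the RNA came from whole cultures, a lower share of cells with a transcript and less of it per cell cannot be told apart.

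**Figure D1:**
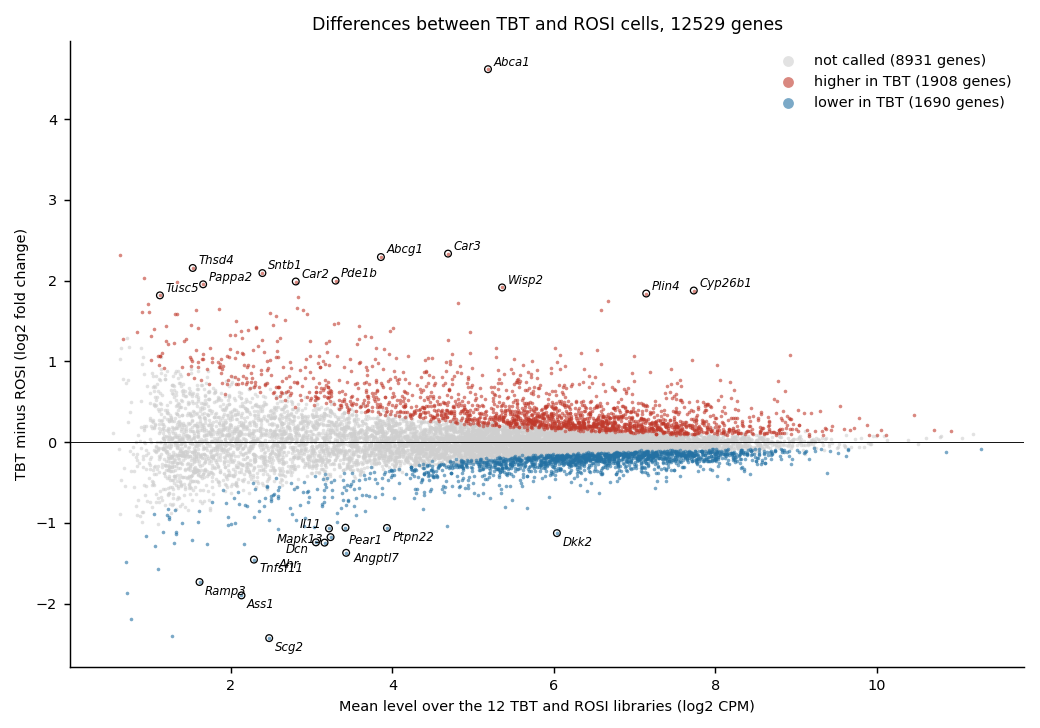
Each point is 1 of 12529 genes, with its mean level over the 12 libraries (log2 CPM) across and its TBT minus ROSI log2 fold change up; red and blue points passed an adjusted p of 0.05. Ringed and named are the 12 largest differences in each direction among genes with a full symbol that averaged a log2 CPM of at least 1 and did not overlap between the groups, and Abca1, at 4.62, stands apart from all others.

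The cholesterol exporter gene Abca1 had by far the largest log2 fold change among the genes tested. Its lowest, median and highest level was 161, 179 and 194 CPM in TBT libraries and 4.33, 7.17 and 10.2 CPM in ROSI libraries, a 24.6-fold difference (log2 fold change 4.62 ± 0.12, adjusted p = 1.38e-28). Every TBT library exceeded every ROSI library by a wide margin. DMSO cells held 7.55 ± 2.34 CPM and AGN194204 cells 209 ± 25 CPM. ROSI cells were close to DMSO cells, at a log2 fold change of -0.07 ± 0.21. The related exporter Abcg1 had 25.8, 31.7 and 36.3 CPM in TBT libraries and 3.94, 6.4 and 9.17 CPM in ROSI libraries (log2 fold change 2.29 ± 0.13). Its groups again did not overlap.

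Among genes with a full symbol that averaged a log2 CPM of at least 1 and did not overlap between the groups, the 10 others that led the higher side included the carbonic anhydrases Car3 and Car2, which interconvert carbon dioxide and bicarbonate, the lipid droplet coat gene Plin4, the retinoic acid hydroxylase Cyp26b1, the cyclic nucleotide phosphodiesterase Pde1b and the matricellular gene Wisp2. Car3 ranged over 52.5, 56.9 and 63 CPM (lowest, median and highest) in TBT cells and 8.15, 11.5 and 15 CPM in ROSI cells, with DMSO cells at 2.14 ± 1.07 CPM. Wisp2 had 72, 76.6 and 90.7 CPM in TBT cells and 16.7, 22.3 and 24.6 CPM in ROSI cells, and Pde1b had 14.3, 18.9 and 24.4 and 3.46, 4.32 and 7.48 CPM. None of these 3 genes overlapped between the groups, and their log2 fold changes were 2.34 ± 0.11, 1.92 ± 0.10 and 2.00 ± 0.19. The remaining genes were low: Thsd4, whose product binds fibrillin microfibrils, at 5.44 ± 1.9 CPM in TBT and 1.2 ± 0.705 CPM in ROSI cells, Sntb1, a syntrophin, at 10.01 ± 1.92 and 2.32 ± 0.821 CPM, Pappa2, a protease that cleaves insulin-like growth factor binding proteins, at 5.53 ± 0.867 and 1.41 ± 0.878 CPM, and Tusc5, which takes part in insulin-stimulated glucose transport in fat cells, at 3.36 ± 1.01 and 0.954 ± 0.572 CPM. Car2 averaged 13.3 ± 2.47 CPM in TBT cells and 3.32 ± 1.32 CPM in ROSI cells (log2 fold change 1.99 ± 0.22).

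On the lower side, under the same conditions (which leave out Mcpt8 and Dio2 among others), the secretogranin gene Scg2, which encodes a protein of secretory granules, led with 0.376, 2.5 and 3.9 CPM in TBT libraries and 9.86, 12.9 and 14 CPM in ROSI libraries (log2 fold change -2.43 ± 0.25, adjusted p = 9.49e-10). Ass1, the argininosuccinate synthase of the urea cycle, followed at 2.05 ± 0.78 and 7.6 ± 1.43 CPM, and Ramp3, an accessory protein of the calcitonin receptor family, at 1.54 ± 0.996 and 5.13 ± 1.23 CPM (log2 fold changes -1.90 ± 0.23 and -1.73 ± 0.33). Both were low in every library, yet no TBT library reached the lowest ROSI library. Tnfsf11, which encodes the osteoclast-inducing cytokine RANKL, had 1.26, 2.45 and 4.7 CPM in TBT libraries and 5.66, 8.04 and 8.87 CPM in ROSI libraries (log2 fold change -1.46 ± 0.25). The proteoglycan gene Dcn (decorin) averaged 5.19 ± 1.15 CPM in TBT cells and 12.4 ± 3.53 CPM in ROSI cells, and Ahr, the aryl hydrocarbon receptor that senses many pollutants, averaged 5.62 ± 1.9 and 13.4 ± 2.53 CPM. The secreted Wnt antagonist gene Dkk2 was the most highly counted of the 12, with 38.1, 44.7 and 49.1 CPM in TBT libraries and 91.5, 95.2 and 107 CPM in ROSI libraries (log2 fold change -1.13 ± 0.06). It fell in all 6 TBT libraries below the lowest ROSI library. Il11, an interleukin 6 family cytokine made by stromal cells, the kinase Mapk13, the secreted factor Angptl7, the phosphatase Ptpn22 and the receptor Pear1 completed the group, at log2 fold changes of -1.07, -1.18, -1.37, -1.06 and -1.06.

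**Figure D2:**
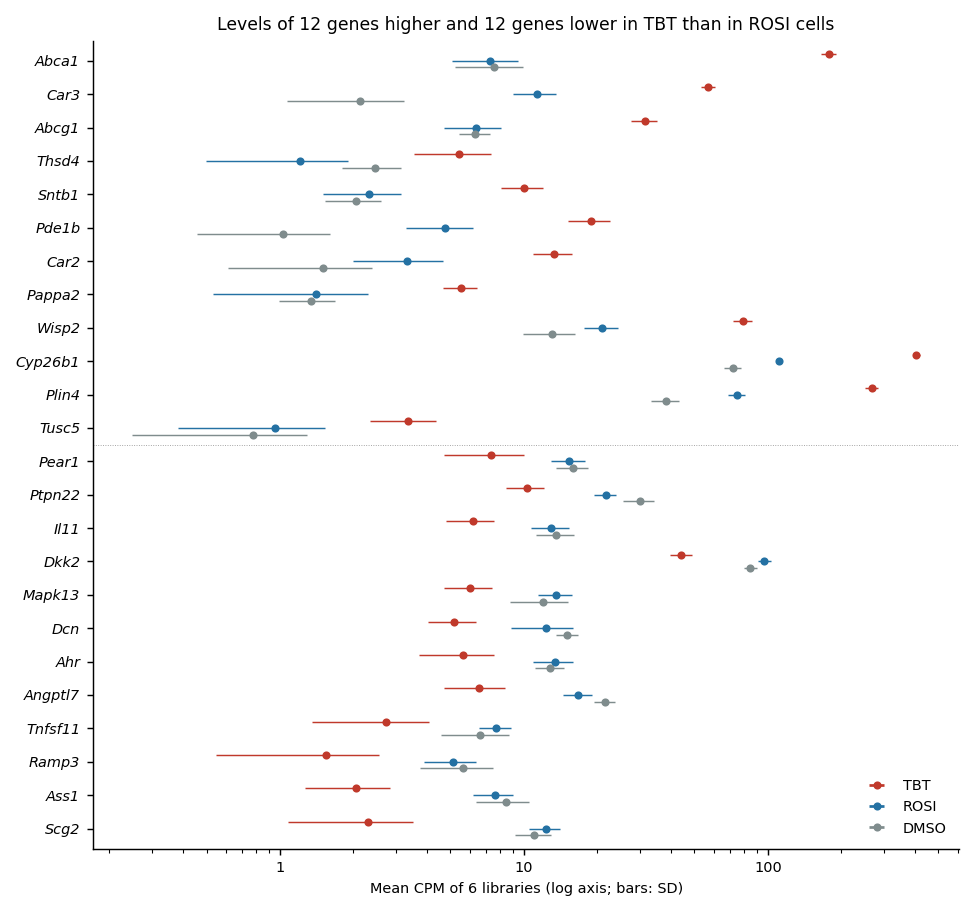
Mean CPM on a log axis, with SD over 6 libraries as bars, of the 12 genes higher (above the dotted line) and the 12 lower in TBT than in ROSI cells that are ringed in the plot of differences against level, with DMSO cells shown beside them. For Abca1, Abcg1 and Sntb1 the ROSI and DMSO points lie together, whereas for Car3 and Pde1b the ROSI point lies between TBT and DMSO.

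The RXR genes did not pass the test. Rxra averaged 198 ± 6.65 CPM in TBT cells and 199 ± 5.84 CPM in ROSI cells (log2 fold change -0.01 ± 0.04, 95% interval -0.09 to 0.07), and Rxrb averaged 158 ± 15.4 and 155 ± 4.02 CPM (interval -0.08 to 0.13). Rxrg had 0 counts in all 12 libraries, which allows up to 0.114 CPM over the 6 TBT libraries and 0.117 CPM over the 6 ROSI libraries, for counting error only. The retinoic acid receptor genes Rara and Rarg had intervals of -0.05 to 0.15 and 0.00 to 0.15, and Rarg passed the test without TBT replicate 2 (log2 fold change 0.11, adjusted p = 0.0155) and with ERCC scaling. Among 32 nuclear receptor genes, 26 were tested and 9 rose and 3 fell, with a median of 0.0634. That lower count is near the share over all tested genes (13.5%). The count of lower genes was 1 without TBT replicates 2 and 6 together. The largest of the rises was in Nr1h3, the gene of LXRα, with 13.3, 16.5 and 19.4 CPM in TBT libraries and 6.51, 8.37 and 9.78 CPM in ROSI libraries (log2 fold change 0.99 ± 0.16, adjusted p = 1.18e-05). Its levels did not overlap. Pparg, the gene of PPARγ, had 56, 59.6 and 68.4 CPM in TBT libraries and 32.7, 36.1 and 42.6 CPM in ROSI libraries (log2 fold change 0.73 ± 0.07, adjusted p = 5.14e-11), again with no overlap, beside 44.3 ± 2.02 CPM in DMSO cells and 68.6 ± 3.61 CPM in AGN194204 cells. ROSI cells were below DMSO cells for this gene (log2 fold change -0.27 ± 0.07, adjusted p = 0.0356) and TBT cells above them (0.46 ± 0.06, adjusted p = 4.4e-07). Rarb, a retinoic acid receptor gene that is itself induced by retinoic acid, averaged 52.8 ± 4.37 CPM in TBT and 33.8 ± 2.44 CPM in ROSI cells (log2 fold change 0.64 ± 0.07). DMSO libraries had a lowest, median and highest Rarb level of 39.6, 48.1 and 54.2 CPM, above all ROSI libraries and overlapping TBT libraries. The orphan receptor gene Nr4a2 was at 41.8 ± 3.43 CPM in TBT cells, against 56.4 ± 2.07 CPM in ROSI cells (-0.44 ± 0.07). Of 20 coactivator and corepressor genes, Ncoa1 rose (0.39 ± 0.09) and the arginine methyltransferase Prmt1 fell (-0.23 ± 0.04, a call lost with ERCC scaling), and the other 18 did not pass the test. Without TBT replicate 6 or without ROSI replicate 2, 4 or 5, 2 of the 20 were higher.

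Of 22 LXR target genes 15 were tested, and 11 were higher and 1 was lower in TBT than in ROSI cells, with a median log2 fold change of 0.505, against 15.2% of all tested genes higher and 13.5% lower. The 11 that rose are also the 11 in which all 6 TBT libraries lay above all 6 ROSI libraries. Beside Abca1, Abcg1 and Nr1h3 they include Srebf1, the regulator of fatty acid synthesis, at 146 ± 9.87 CPM in TBT cells and 92.1 ± 5.18 CPM in ROSI cells, Lpcat3, which inserts polyunsaturated chains into phospholipids, at 202 ± 9.26 and 138 ± 6.51 CPM, and the desaturases Scd1 and Scd2. Scd1 had 499, 519.7 and 537 CPM in TBT libraries and 351, 363 and 384 CPM in ROSI libraries (log2 fold change 0.50 ± 0.03, adjusted p = 2.64e-14), and Scd2 826, 876 and 902 and 627, 637 and 647 CPM (0.45 ± 0.03). The member that fell, the small GTPase gene Arl4c, did so by little (-0.13 ± 0.05), and its call was lost when any of 5 single libraries was left out. ROSI minus DMSO log2 fold changes were -0.07 ± 0.21 for Abca1, 0.01 ± 0.17 for Abcg1, 0.32 ± 0.19 for Nr1h3, -0.00 ± 0.06 for Srebf1, -0.04 ± 0.03 for Scd1 and 0.01 ± 0.03 for Scd2, none of which passed the test. Lpcat3 and the member Lpl, described below, were higher in ROSI than in DMSO cells, by 0.20 ± 0.04 (adjusted p = 0.00309) and 0.47 ± 0.04 (adjusted p = 2.41e-11). The gene of the second receptor, Nr1h2 (LXRβ), was at 106 ± 8.99 CPM in TBT and 95.1 ± 6.19 CPM in ROSI cells (0.15 ± 0.05), a call lost when any of 6 single libraries was left out. LXR binds a repeat of AGGTCA with 4 bases between (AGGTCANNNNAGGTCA). The repeat was searched on both strands with up to 2 mismatches in RefSeq promoters, from 250 bases before to 50 after the start. A match was found in 0 of the 10 tested members with a promoter and in 3.47% of 27025 mouse genes. At that share, 10 genes are too few for 0 matches to show a lack of the repeat. Sites with more mismatches or outside the window were not searched.

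**Figure D3:**
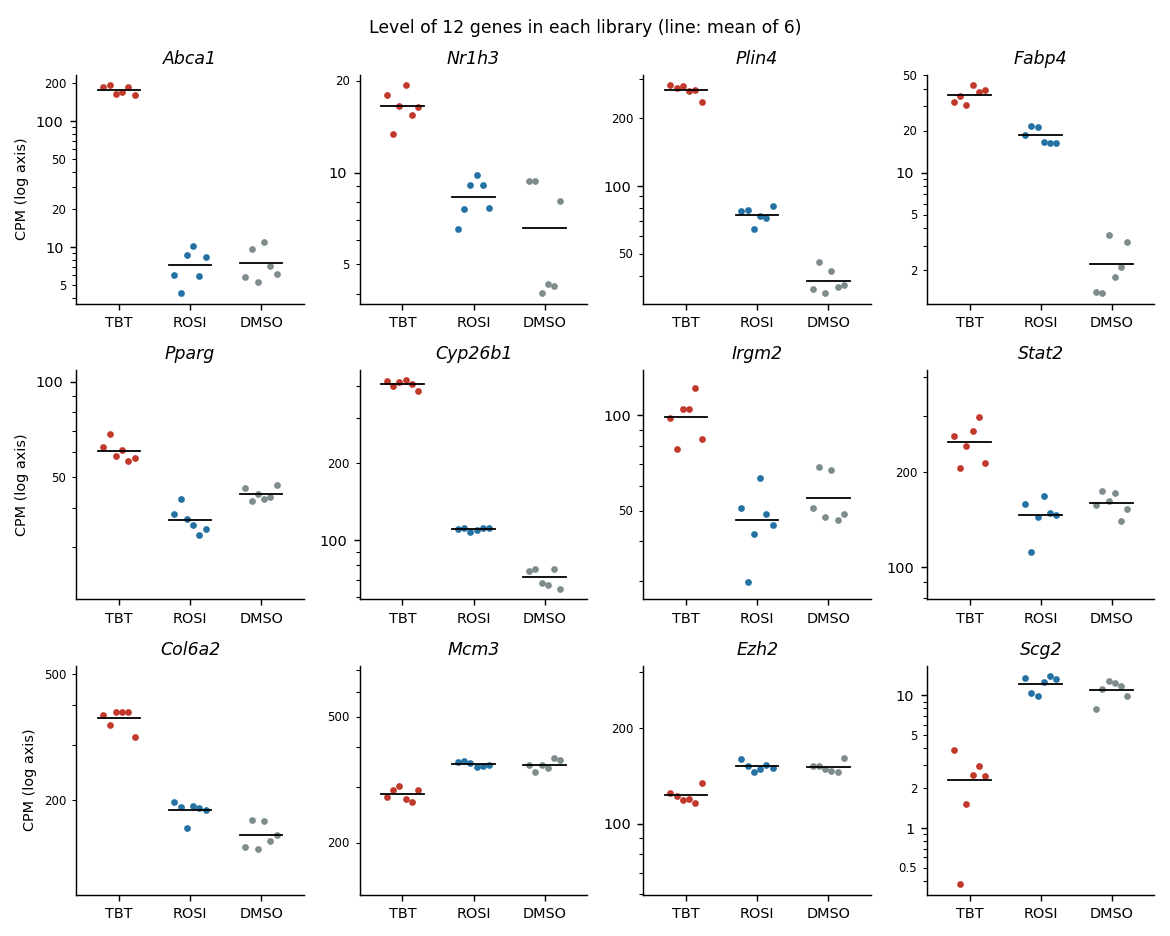
CPM of 12 genes in each of the 6 TBT, 6 ROSI and 6 DMSO libraries on log axes, with the mean as a line. TBT and ROSI points do not overlap for any of the 12, and in Mcm3 and Ezh2 the gap is narrow: the highest TBT and lowest ROSI levels are 302 and 347 CPM for Mcm3.

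PPARγ target genes were mostly higher in TBT than in ROSI cells. Of 43 listed, 29 were tested: 16 were higher, none was lower and the median log2 fold change was 0.347. Over all tested genes 15.2% were higher and 13.5% lower. Plin4 had 235, 271 and 281 CPM in TBT libraries and 64.6, 75.4 and 81.6 CPM in ROSI libraries (log2 fold change 1.84 ± 0.07, adjusted p = 7.28e-23), with 38.1 ± 4.99 CPM in DMSO cells. The fatty acid binding protein gene Fabp4, a standard marker of PPARγ activity, had 30.4, 36.8 and 42.6 CPM in TBT libraries and 16.4, 17.6 and 21.6 CPM in ROSI libraries (log2 fold change 0.97 ± 0.11), against 2.24 ± 0.927 CPM in DMSO cells. In both genes the 3 groups formed separate steps, TBT highest and DMSO lowest. Pdk4, which slows glucose oxidation by phosphorylating pyruvate dehydrogenase, averaged 183 ± 5.22 CPM in TBT and 87.4 ± 4.4 CPM in ROSI cells (1.07 ± 0.05). Lpl, the lipase that frees fatty acids from lipoproteins, averaged 374 ± 13.5 and 224 ± 6.27 CPM (0.74 ± 0.04), and Angptl4, a secreted inhibitor of that lipase, averaged 329 ± 15.8 and 221 ± 8.43 CPM (0.57 ± 0.04). The lipid droplet gene Plin2 did not pass the test, at 73.9 ± 4.84 CPM in TBT and 70.7 ± 7.13 CPM in ROSI cells (95% interval -0.05 to 0.19).

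Mature fat cell genes remained rare in both groups. Adipoq (adiponectin) and Lep (leptin) had 0 counts in all 12 libraries, so that a level of up to 0.114 CPM in TBT cells and 0.117 CPM in ROSI cells is allowed. The fatty acid transporter gene Cd36 had 80 counts over the 6 TBT libraries and 14 over the 6 ROSI libraries, the droplet gene Cidec had 48 and 13, and Plin1 had 14 and 1; all 3 were too low to be tested. Of 25 adipocyte markers 10 were tested, 6 of them rose and none fell, and several are also PPARγ targets. Among 27 regulators that promote fat cell formation, 24 were tested and 14 rose and 3 fell (median 0.241). That lower count is near the share over all tested genes (13.5%). Ebf2, an early commitment factor of the fat lineage, had 30.6, 39.3 and 47 CPM in TBT libraries and 14.3, 18.2 and 21.9 CPM in ROSI libraries (1.09 ± 0.11). Prdm16, a regulator of brown and beige fat, averaged 14.2 ± 4.07 and 7.57 ± 1.88 CPM (0.92 ± 0.19), Stat5a 60.7 ± 4.79 and 35.6 ± 2.73 CPM (0.77 ± 0.07) and Cebpa, the partner of PPARγ in terminal differentiation, 26.2 ± 1.24 and 20.02 ± 3.58 CPM (0.39 ± 0.10). Levels of Ebf2 and Stat5a did not overlap between the groups. Cebpb, which acts upstream of both, averaged 128 ± 10.7 CPM in TBT and 131 ± 9.54 CPM in ROSI cells, with a 95% interval of -0.14 to 0.07. Klf5, Mecom and Creb1 were the 3 members that fell (-0.44 ± 0.05, -0.31 ± 0.07 and -0.23 ± 0.05), and the calls of Mecom and Creb1 were lost with ERCC scaling. Of 26 genes known to oppose fat cell formation 22 were tested, and 8 rose and 2 fell (median 0.0912), Foxo1 (0.52 ± 0.09) and Runx1t1 (0.40 ± 0.08) among the rises. Those lower, below the share over all tested genes (13.5%), were Sox9 and the orphan receptor gene Nr2f2 (-0.10 ± 0.03). The count was 1 without TBT replicate 1, and 0 without TBT replicates 2 and 6 together or with ERCC scaling.

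Genes of retinoid metabolism were higher more often than lower. Cyp26b1, the enzyme that clears retinoic acid, had 382, 411 and 420.0 CPM in TBT libraries and 107, 111 and 112 CPM in ROSI libraries (log2 fold change 1.88 ± 0.04, adjusted p = 1.05e-30), with 71.7 ± 5.71 CPM in DMSO cells and 414 ± 21 CPM in AGN194204 cells. The ROSI libraries lay within a narrow band well below the lowest TBT library. Dhrs3, which reduces retinaldehyde to retinol, averaged 24.8 ± 4.18 CPM in TBT and 9.56 ± 2.12 CPM in ROSI cells (1.38 ± 0.14), and Retsat, a retinol saturase, averaged 72.9 ± 5.00 and 53.4 ± 4.47 CPM (0.45 ± 0.06). Of 31 retinoic acid receptor targets and retinoid genes 18 were tested: 8 rose and 2 fell (median 0.285). That lower count is near the share over all tested genes (13.5%). One lower member was the retinoic acid binding protein gene Crabp1, at 54.8 ± 4.93 CPM in TBT and 70.03 ± 3.35 CPM in ROSI cells. The other was Aldh1a1, which makes retinoic acid, at 13.3 ± 1.83 and 17.9 ± 3.02 CPM, beside 11.8 ± 2.9 CPM in DMSO cells. For Aldh1a1, ROSI cells were above DMSO cells (log2 fold change 0.61 ± 0.14, adjusted p = 0.0164). TBT cells did not differ from DMSO cells past the threshold (0.18 ± 0.15, adjusted p = 0.405). The Aldh1a1 call between TBT and ROSI cells was lost without ROSI replicate 6 and with ERCC scaling. Of 16 targets of the vitamin D and thyroid hormone receptors 8 were tested, with 3 higher and 2 lower. Klf9 was higher (0.43 ± 0.06), with a median of 73.6 CPM in TBT, 54.2 CPM in ROSI and 66.9 CPM in DMSO libraries. Hr, a corepressor induced by thyroid hormone, had 4.84 ± 2.25 CPM in TBT and 2.43 ± 0.969 CPM in ROSI cells, a call lost without TBT replicate 3. Those lower were Tnfsf11, with the largest difference of the list, and Spp1, described below.

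The called members of 3 lists of lipid metabolism were all higher. Of 26 tested genes of fatty acid and triglyceride synthesis 16 were higher and none lower in TBT than in ROSI cells (median 0.259); of 27 tested genes of fatty acid oxidation 11 were higher and none lower (0.168); and of 25 tested genes of cholesterol synthesis and uptake 12 were higher and none lower (0.113). The 3 lists held 30, 31 and 27 genes before the filter on low counts. In the first, Fads3, a member of the fatty acid desaturase family, averaged 275 ± 14.8 CPM in TBT and 200.3 ± 6.42 CPM in ROSI cells (0.45 ± 0.04). In the second, the peroxisome proliferation gene Pex11a averaged 19.9 ± 2.12 and 10.6 ± 2.4 CPM (0.91 ± 0.14), Acot2, a mitochondrial thioesterase, 52.1 ± 6.7 and 30.1 ± 2.97 CPM (0.78 ± 0.08), and Cpt1a, which admits long-chain fatty acids to mitochondria, 256 ± 14.2 and 189 ± 10.4 CPM (0.44 ± 0.05). In none of these 3 did a TBT library fall to the level of a ROSI library. Sterol genes differed by less: Hmgcs1 and Lss, enzymes of cholesterol synthesis, and Insig1, which holds back the sterol sensor, had log2 fold changes of 0.26 ± 0.04, 0.31 ± 0.05 and 0.32 ± 0.05. Fgf21, a hormone of fasting and stress that is also a PPAR target, was low but rose, with 12.5 ± 2.58 CPM in TBT and 4.00 ± 1.32 CPM in ROSI cells (1.63 ± 0.21), whereas Dio2, which activates thyroid hormone in brown fat, was at 0.613 ± 0.747 and 2.89 ± 1.02 CPM (-2.19 ± 0.46). Dio2 had too few counts for the stricter filter and for the fit to the 12 libraries, and DESeq2 gave it no adjusted p.

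Genes induced by interferon were higher in all but 2 of those tested. Of 46 listed, 44 were tested, and 42 of them rose and none fell, with a median log2 fold change of 0.718. Over all tested genes 15.2% rose and 13.5% fell. In 28 of the 44 every TBT library lay above every ROSI library, against 6.78% of all tested genes. Stat2, which carries the interferon signal to the nucleus, had 207, 251 and 298 CPM in TBT libraries and 112, 147 and 167 CPM in ROSI libraries (log2 fold change 0.76 ± 0.07, adjusted p = 2.92e-10). Ddx58, which encodes the viral RNA sensor RIG-I, had 197, 241 and 277 and 111, 143 and 178 CPM (0.73 ± 0.07), and Usp18, which curbs interferon signalling, 98.1, 138 and 166 and 50.2, 71.5 and 82.9 CPM (0.96 ± 0.09). The groups were apart in Stat2, Ddx58 and Usp18. Trim25, a ubiquitin ligase that acts on RIG-I, averaged 277 ± 22.4 CPM in TBT and 199 ± 17.2 CPM in ROSI cells (0.48 ± 0.05). ROSI and DMSO cells were close, with ROSI minus DMSO log2 fold changes of -0.13 ± 0.08 for Stat2, -0.07 ± 0.08 for Ddx58 and -0.01 ± 0.10 for Usp18. Over the 44 genes the mean log2 CPM ranged from 6.08 to 6.6 in TBT libraries and from 5.23 to 5.94 in ROSI libraries, a wider spread within each group than in the other lists drawn beside it.

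The interferon-inducible GTPases, which attack the vacuoles of intracellular pathogens, were higher in all 14 of the 17 listed that could be tested (median 0.802). Irgm2 had 78.4, 102 and 122 CPM in TBT libraries and 29.9, 46.9 and 63.3 CPM in ROSI libraries (1.08 ± 0.11), Igtp averaged 65 ± 13.5 and 31.8 ± 4.1 CPM (1.03 ± 0.11), Gbp3 122 ± 24.2 and 69.6 ± 14.2 CPM (0.81 ± 0.10) and Gbp7 84.6 ± 15.6 and 46.5 ± 9.2 CPM (0.86 ± 0.11). The levels of Irgm2 did not overlap between the groups. Members of this family and the H2 genes named next have near-identical copies, and reads may be split among them. Of 22 genes of antigen presentation by MHC class I, 21 were tested and 14 rose and none fell (median 0.3). They include the peptide transporter genes Tap1, at 97.6 ± 24 CPM in TBT and 43.4 ± 6.5 CPM in ROSI cells (1.16 ± 0.13), and Tap2 (0.72 ± 0.11), the class I transactivator Nlrc5 (1.25 ± 0.20) and H2-D1 (0.45 ± 0.07). No interferon gene had enough counts to be tested.

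The promoters of 2 of these genes show the element through which the interferon signal acts. The interferon-stimulated response element was searched as GAAANNGAAA on both strands, without mismatches, in RefSeq promoters of GRCm38.p6 that run from 250 bases before to 50 bases after the start. It was present in 14 of the 32 tested interferon-induced genes with a promoter (43.8%), in 9 of 10 GTPase genes (90%), in 5 of 18 class I genes (27.8%) and in 3.99% of all 27025 genes with a promoter. Matches are in capitals, overlapping ones run together, and Isg15, the gene of the ubiquitin-like protein ISG15, was picked for display after its values were seen: it averaged 76.7 ± 10.2 CPM in TBT and 54.8 ± 4.83 CPM in ROSI cells (0.48 ± 0.08).
Isg15, chr4:156200769-156201068, minus strand: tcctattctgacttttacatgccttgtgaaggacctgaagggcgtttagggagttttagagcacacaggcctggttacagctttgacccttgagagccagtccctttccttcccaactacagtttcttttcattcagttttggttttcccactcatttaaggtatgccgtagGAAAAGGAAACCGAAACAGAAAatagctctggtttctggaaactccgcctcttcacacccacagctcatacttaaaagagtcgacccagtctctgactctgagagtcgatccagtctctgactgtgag
Irgm2, chr11:58214727-58215026, plus strand: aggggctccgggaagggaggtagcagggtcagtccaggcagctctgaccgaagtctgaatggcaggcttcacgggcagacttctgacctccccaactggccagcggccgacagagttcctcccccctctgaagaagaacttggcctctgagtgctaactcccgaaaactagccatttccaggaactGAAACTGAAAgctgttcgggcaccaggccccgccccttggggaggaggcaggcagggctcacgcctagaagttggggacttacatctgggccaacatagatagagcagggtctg
Isg15 has 3 matches on its own strand that start 78, 72 and 66 bases before the start of the gene, and Irgm2 has 1 match, 64 bases before its start. A match describes letters in the window, not a site in use. The shares cover all tested members with a promoter, called or not, and do not test the difference between TBT and ROSI cells.

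**Figure D4:**
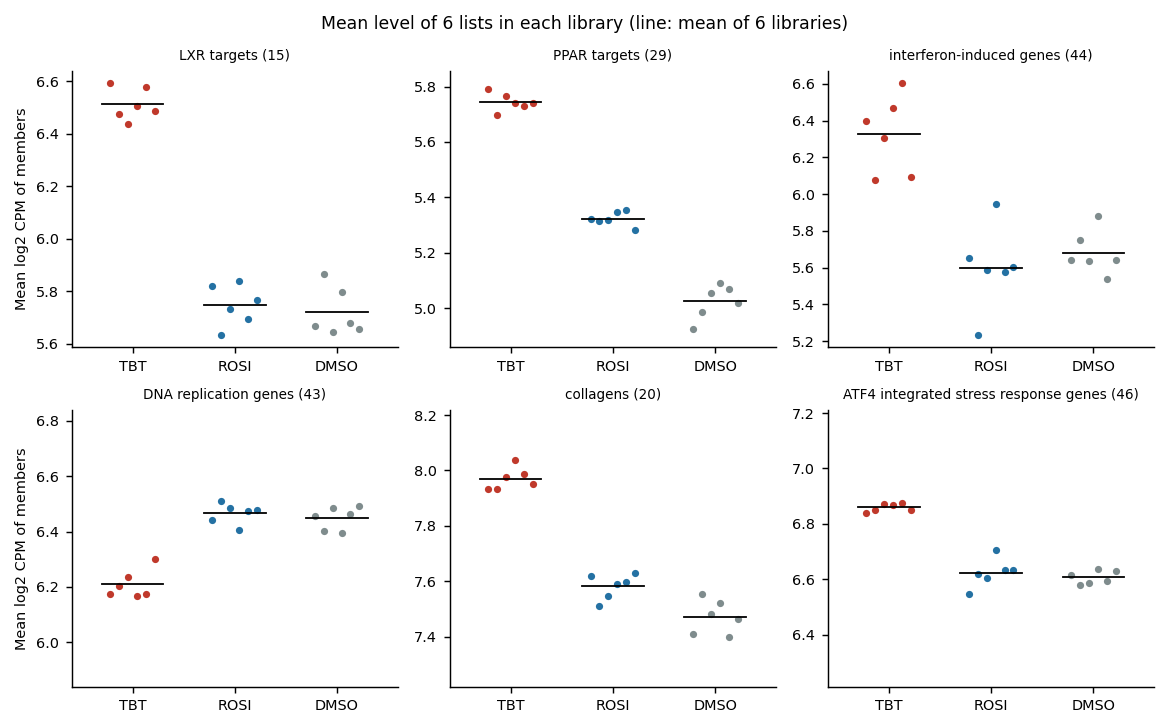
Mean log2 CPM over the tested members of 6 lists (number of genes in brackets) in each TBT, ROSI and DMSO library, with the mean of 6 libraries as a line. TBT and ROSI libraries do not overlap in any of the 6 lists; TBT is higher in 5 and lower for DNA replication genes.

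Most genes of cell division were lower, by small amounts. Of 43 DNA replication genes, all tested, none rose and 36 fell, against 15.2% and 13.5% of all tested genes. Their median log2 fold change was -0.25, with a range of -0.693 to -0.0666. Of 50 mitosis genes 49 were tested, none rose and 36 fell (median -0.224, range -0.374 to -0.00867). Mcm3, a subunit of the replicative helicase, had 268, 286 and 302 CPM in TBT libraries and 347, 354 and 363 CPM in ROSI libraries (log2 fold change -0.31 ± 0.03, adjusted p = 3.62e-09), and its groups did not overlap. Mcm2 of the same helicase averaged 259 ± 9.3 CPM in TBT and 309.8 ± 8.68 CPM in ROSI cells (-0.26 ± 0.03). The histone chaperone subunit Chaf1a averaged 224 ± 7.26 and 263 ± 8.9 CPM (-0.23 ± 0.04) and Uhrf1, which maintains DNA methylation, 221 ± 7.67 and 259 ± 8.00 CPM (-0.23 ± 0.03). Among mitosis genes, Top2a, which untangles DNA, had 420.1, 441 and 479.6 CPM in TBT libraries and 501, 541 and 556 CPM in ROSI libraries (-0.27 ± 0.04), and the condensin subunits Smc2 and Smc4 had log2 fold changes of -0.33 ± 0.05 and -0.21 ± 0.03. With ERCC scaling 2 replication genes and 0 mitosis genes fell, and none rose. All 43 and all 49 still lay below the median of all genes. A change of scaling moves the genes and that median almost alike, so this position is no separate support. The lower level is one relative to the bulk of the genes. Against the spike-ins the list medians were smaller, at -0.12 and -0.0958, and almost no member passed the test.

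The list of 41 histone methylation genes, all tested, split evenly, with 11 higher and 11 lower in TBT than in ROSI cells. Those lower were led by subunits of PRC2, the Polycomb complex that methylates histone H3 at lysine 27: the catalytic Ezh2 had 116, 121 and 135 CPM in TBT libraries and 145, 151 and 160.4 CPM in ROSI libraries (log2 fold change -0.30 ± 0.04, adjusted p = 5.48e-07), Suz12 averaged 159 ± 7.36 and 187 ± 4.86 CPM (-0.23 ± 0.04) and the accessory gene Phf19 35 ± 3.75 and 50.8 ± 4.29 CPM (-0.54 ± 0.09). Ezh2 did not overlap between the groups. The alternative catalytic subunit Ezh1 went the other way, at 38.8 ± 3.02 CPM in TBT and 27 ± 4.14 CPM in ROSI cells (0.52 ± 0.10), as did the demethylase Kdm6b, which removes the same mark (0.45 ± 0.06), and the PRC2 cofactor Jarid2 (0.34 ± 0.08). Phf19 alone of the 11 lower members kept its call with ERCC scaling, under which 11 were higher and 1 was lower.

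E2F factors switch on replication genes through the letters TTTGGCGC or TTTCCCGC. Either of them, searched on both strands without mismatches in the same promoter windows, was present in 11 of the 34 DNA replication genes with a promoter (32.4%), in 3 of 41 mitosis genes (7.32%), in 3 of 33 histone methylation genes (9.09%) and in 1.8% of all genes with a promoter. The promoters of Mcm3 and Ezh2 are shown as a replication gene and a Polycomb gene that fell, with the matches in capitals.
Mcm3, chr1:20820263-20820562, minus strand: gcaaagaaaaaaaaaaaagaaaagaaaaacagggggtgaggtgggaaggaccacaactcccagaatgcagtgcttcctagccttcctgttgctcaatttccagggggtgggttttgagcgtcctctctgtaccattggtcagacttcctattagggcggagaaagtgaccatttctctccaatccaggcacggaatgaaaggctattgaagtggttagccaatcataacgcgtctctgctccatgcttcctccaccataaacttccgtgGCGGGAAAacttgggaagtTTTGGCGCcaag
Ezh2, chr6:47594981-47595280, minus strand: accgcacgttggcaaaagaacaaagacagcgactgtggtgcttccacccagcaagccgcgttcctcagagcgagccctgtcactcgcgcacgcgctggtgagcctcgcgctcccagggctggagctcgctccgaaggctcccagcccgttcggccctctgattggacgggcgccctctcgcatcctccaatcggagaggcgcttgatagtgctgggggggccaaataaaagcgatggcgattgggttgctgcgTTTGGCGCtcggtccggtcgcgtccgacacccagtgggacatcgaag
Mcm3 has the first motif from base 39 of the transcribed part and the second, on the opposite strand, from base 20. Ezh2 has the first motif from base 4. The shares cover all tested members with a promoter, called or not, and do not test the difference between TBT and ROSI cells. A match describes letters in the window and not a site in use, and a role of E2F was not tested.

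Collagen genes were higher almost throughout. Of 23 listed, 20 were tested: 18 rose and none fell (median 0.305), against 15.2% and 13.5% of all tested genes. The 3 chains of collagen VI, a filament that links cells to their surrounding matrix, led by adjusted p. Col6a2 had 318, 376 and 382 CPM in TBT libraries and 164, 190.2 and 198 CPM in ROSI libraries (0.96 ± 0.06, adjusted p = 2e-15), Col6a3 averaged 579 ± 35.7 and 373 ± 22.7 CPM (0.63 ± 0.05), and Col6a1 511 ± 10.7 and 352 ± 10.9 CPM (0.54 ± 0.04). Every TBT library exceeded every ROSI library for these chains. Col27a1 rose by 0.90 ± 0.09, and Col1a1, the main chain of bone and skin collagen, by 0.14 ± 0.04 only, at 2028 ± 196 CPM in TBT and 1844 ± 58.8 CPM in ROSI cells. Enzymes and inhibitors that process matrix were also mostly higher, with 19 of 29 tested (36 listed) rising and 1 falling (median 0.218). The cross-linking oxidase Lox averaged 971 ± 56.6 CPM in TBT and 790.3 ± 24.2 CPM in ROSI cells (0.30 ± 0.04), its relatives Loxl2 and Loxl4 had log2 fold changes of 0.61 ± 0.05 and 0.45 ± 0.05, and the protease gene Mmp23 had 0.94 ± 0.10. The member that fell was the protease inhibitor Timp1 (-0.29 ± 0.05), a call lost with ERCC scaling.

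Other matrix genes were higher in 14 of 38 tested (48 listed) and lower in 5 (median 0.0679). Over all tested genes 15.2% were higher and 13.5% lower, so the lower count is near the share over all genes. Thbs2, a thrombospondin, had 504, 572 and 615 CPM in TBT libraries and 301, 340.2 and 373 CPM in ROSI libraries (0.75 ± 0.06). The proteoglycan gene Ogn averaged 115 ± 7.24 and 65.3 ± 7.38 CPM (0.82 ± 0.07), the tenascin gene Tnxb 106 ± 7.83 and 63.1 ± 1.98 CPM (0.75 ± 0.07), and Nid1 of the basement membrane 621 ± 26 and 483 ± 8.51 CPM (0.36 ± 0.03). Neither Thbs2 nor Ogn overlapped between the groups. Besides Dcn, those lower were led by Npnt (-0.30 ± 0.05), Fbln1 (-0.21 ± 0.05) and Vcan (-0.19 ± 0.05), each a call lost with ERCC scaling, and Fbln1 also without TBT replicates 2 and 6 together. In the CCN family, Wisp2 rose as given above and Ctgf by 0.25 ± 0.04, while the other 3 tested members did not pass the test. Contractile genes of smooth muscle and myofibroblasts were higher in 5 of 16 tested (22 listed) and lower in none (median 0.126), among them Lmod1 (1.04 ± 0.11), Csrp1 (0.29 ± 0.05) and Cnn1 (0.22 ± 0.06). Without TBT replicates 2 and 6 together, 8 of the 16 were higher.

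**Figure D5:**
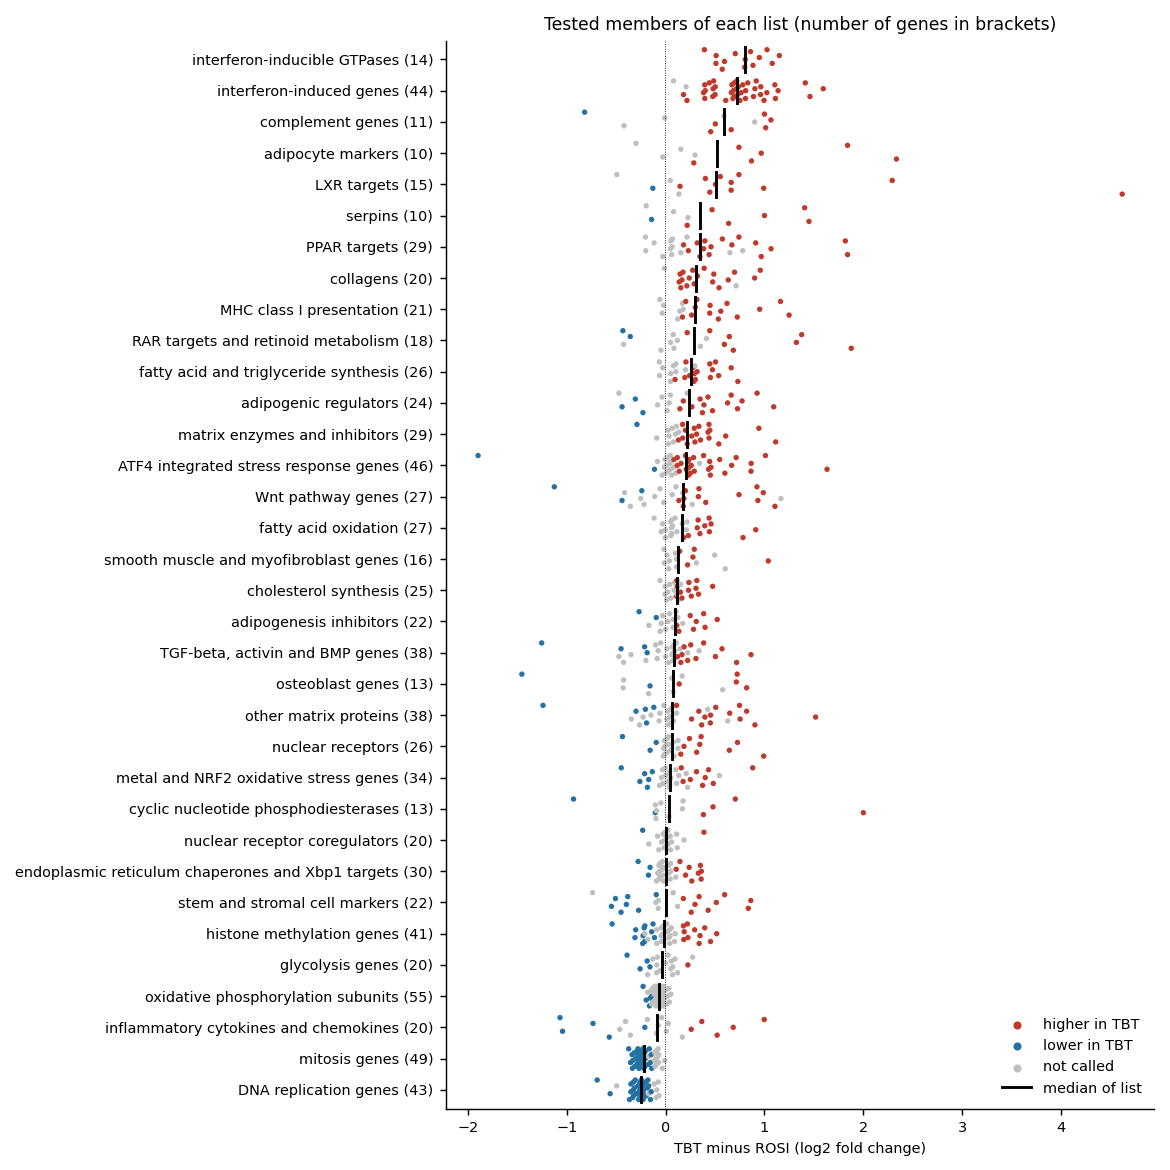
Every tested member of the lists with at least 10 tested genes, placed by its TBT minus ROSI log2 fold change, with the list median as a black bar and lists ordered by it from high to low; the dotted line is the median of all 12529 genes. The 2 interferon lists lie wholly to the right of 0 and the replication and mitosis lists wholly to its left.

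Markers of the stromal cell itself moved both ways. Of 23 listed, 22 were tested, and 9 rose and 7 fell around a median of 0.0012. Pdgfrb (0.51 ± 0.05), Ly6a (0.43 ± 0.07) and the niche transcription factor Foxc1 rose, the last with 225 ± 16.3 CPM in TBT and 149 ± 7.79 CPM in ROSI cells (0.60 ± 0.05). Cxcl12, the chemokine that retains blood stem cells in the marrow, was also higher in TBT than in ROSI cells (0.26 ± 0.04). For Cxcl12, ROSI cells were below DMSO cells (-0.19 ± 0.04, adjusted p = 0.0125). TBT cells did not differ from DMSO cells past the threshold (0.07 ± 0.04, adjusted p = 0.197). Thy1, at 35.9 ± 3.74 CPM in TBT and 52.4 ± 3.00 CPM in ROSI cells (-0.55 ± 0.07), the hyaluronan receptor Cd44 (-0.40 ± 0.03), the BMP antagonist Grem1 (-0.45 ± 0.05) and the intermediate filament gene Nes (-0.38 ± 0.03) fell. Of 27 bone-forming genes 13 were tested, with 4 higher and 2 lower. That lower count is near the share over all tested genes (13.5%). The count of higher genes was 2 without TBT replicate 3 or 5 or without ROSI replicate 2, 3, 4 or 5. Runx2, the master regulator of bone formation, averaged 151 ± 6.02 CPM in TBT and 143 ± 7.11 CPM in ROSI cells and did not pass the test, with a 95% interval of -0.02 to 0.17. The matrix protein gene Spp1 fell by little (-0.16 ± 0.04), a call lost with ERCC scaling. Of 16 cartilage genes 4 were tested, and Col11a1 rose (0.48 ± 0.08) while Sox9 fell (-0.27 ± 0.08), the call of Sox9 being lost with ERCC scaling and without TBT replicates 2 and 6 together.

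Signalling genes showed single large differences within their lists. The counts of lower genes in the Wnt and TGF-beta lists were near the share over all tested genes (13.5%). Of 44 Wnt pathway genes 27 were tested, with 12 higher and 3 lower (median 0.173; 1 lower without ROSI replicate 3 or 4). The R-spondin receptor Lgr6 averaged 45.5 ± 2.14 CPM in TBT and 21.1 ± 4.17 CPM in ROSI cells (1.11 ± 0.10), the Wnt receptor Fzd5 43.2 ± 6.82 and 23 ± 3.38 CPM (0.92 ± 0.11), and Dkk2 was the lowest of the list, as given above. Of 45 genes of TGF-beta, activin and BMP signalling 38 were tested, with 12 higher and 4 lower. Ltbp2, a latent TGF-beta binding protein, had 202, 227 and 244 CPM in TBT libraries and 126, 136 and 149.5 CPM in ROSI libraries (0.72 ± 0.05) with no overlap. Smad6, an inhibitor of BMP signals, rose by 0.57 ± 0.06, and Fst, which binds activin, was low and fell (-1.25 ± 0.37), a call lost without TBT replicates 2 and 6 together. Of 35 inflammatory cytokines and chemokines 20 were tested, and 5 rose and 5 fell. Among those higher were Ccl9 (1.00 ± 0.10) and the interferon-induced chemokine Cxcl10 (0.68 ± 0.09). Those lower include Il33, an alarmin held in the nucleus, with 12.6, 16.9 and 23.3 CPM in TBT libraries and 32.6, 37.3 and 39.6 CPM in ROSI libraries (-1.04 ± 0.10), and Il1rl1, its receptor, at 125 ± 4.87 and 186 ± 9.03 CPM (-0.57 ± 0.04). Il33 and its receptor were both without overlap between the groups. Complement genes rose in 6 of 11 tested (22 listed) and fell in 1. C1rl (1.06 ± 0.14), C4b (1.01 ± 0.22), the C1 inhibitor Serping1 (1.00 ± 0.25) and Masp1 (0.66 ± 0.10) were higher. C3 was lower (-0.82 ± 0.25), a call lost without ROSI replicate 2 and with ERCC scaling.

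Smaller families gave these values. Of 11 carbonic anhydrase genes 6 were tested, with 4 higher and 1 lower. Beside Car2 and Car3, Car13 rose (0.43 ± 0.06), at 96.5 ± 6.44 CPM in TBT and 71.7 ± 5.01 CPM in ROSI cells. The mitochondrial Car5b fell by little (-0.19 ± 0.07). Its call was lost without TBT replicate 2 (also when left out with replicate 6) or ROSI replicate 4, and with ERCC scaling. Of 16 phosphodiesterase genes 13 were tested: beside Pde1b, Pde2a (0.70 ± 0.22), Pde3a (0.48 ± 0.10) and Pde4a (0.38 ± 0.07) rose. Pde7b fell (-0.93 ± 0.25), and Pde8b fell by little (-0.11 ± 0.04), a call lost when any of 6 single libraries was left out. In the angiopoietin-like family 4 of 7 genes were tested: Angptl4, given above, and Angptl6 (1.17 ± 0.33) rose, Angptl7 fell, and Angptl2 fell by little (-0.11 ± 0.04), a call lost when any of 5 single libraries was left out. Of 21 serpins 10 were tested with 6 higher and 1 lower. Those higher included Serpinb9, an inhibitor of granzyme B, at 66.6 ± 7.14 CPM in TBT and 42.6 ± 5.01 CPM in ROSI cells (0.64 ± 0.08), and the antiangiogenic Serpinf1 (0.47 ± 0.04). The one lower was Serpinb6a (-0.14 ± 0.05), a call lost without TBT replicate 2 and with ERCC scaling.

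Stress genes separated by pathway. The integrated stress response, in which ATF4 induces genes of amino acid supply, was higher in 28 of 46 tested genes (47 listed) and lower in 2 (median 0.204). Trib3, a pseudokinase induced by ATF4, averaged 88.9 ± 8.13 CPM in TBT and 54.1 ± 5.41 CPM in ROSI cells (0.71 ± 0.07), the arginine transporter gene Slc7a3 36.7 ± 3.4 and 18.2 ± 2.07 CPM (1.01 ± 0.10), and the stress cytokine gene Gdf15 28.1 ± 3.12 and 15.4 ± 3.87 CPM (0.86 ± 0.12). TBT and ROSI libraries did not overlap in Trib3, Slc7a3 or Gdf15. Those lower were Ass1, given above, and Psat1 (-0.11 ± 0.03), which makes serine and whose value turned positive with ERCC scaling. Of 30 tested genes of endoplasmic reticulum folding and of XBP1 (32 listed), 9 were higher, among them Herpud1 (0.33 ± 0.05). Those lower numbered 3 (1 to 4 with 1 library left out), below the share over all tested genes (13.5%). Of 38 genes of metal and oxidative stress 34 were tested, 9 higher and 6 lower. Hmox1, the haem oxygenase, averaged 265 ± 22.8 CPM in TBT and 204 ± 2.88 CPM in ROSI cells (0.37 ± 0.04), Aox1, an aldehyde oxidase, rose by 0.88 ± 0.13, and the zinc importer gene Slc39a10 fell (-0.45 ± 0.06). Nqo1 (-0.26 ± 0.07) and Gsr (-0.21 ± 0.05), standard targets of the oxidant sensor NRF2, fell, with both calls lost under ERCC scaling.

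Few genes of energy production passed the test. Of 55 subunits of oxidative phosphorylation, all tested, none rose and 5 fell (median -0.0714), Uqcrh by the most (-0.23 ± 0.06). The count was 3 without TBT replicate 1 or 2 and 0 with ERCC scaling. Of 20 tested glycolysis genes (21 listed), 1 rose and 4 fell. The count of rises was 3 without TBT replicate 2 or 6, and 2 without ROSI replicate 1, 4 or 6. Hexokinase Hk2 averaged 94.5 ± 8.45 CPM in TBT and 124 ± 5.26 CPM in ROSI cells (-0.39 ± 0.06), the glucose transporter Slc2a1 94.8 ± 2.84 and 113 ± 3.44 CPM (-0.26 ± 0.04) and Gapdh 141 ± 10.6 and 160.0 ± 3.77 CPM (-0.19 ± 0.05). With ERCC scaling none of the 20 was lower and 4 were higher.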

How the data were processed

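The deposited table holds raw counts per gene symbol for 24 RNA libraries, made by the authors from strand-specific, paired 75-nt reads, with 92 ERCC spike-ins and 5 rows of unassigned reads, per the labels' protocols and the file. STAR, SAMtools and DESeq2 and the build GRCm38 (mm10) are named in the submitters' processing notes, without versions. The counting program, its strand setting and the run of each library were not found in the sources used here, hence reads of overlapping or antisense genes may be shared and values within a run could not be made. Rows that name no gene and spike-ins stayed out of library sizes; 20.9% to 24.3% of a TBT library's and 21.7% to 23.1% of a ROSI library's reads were in the no-feature row. No column was left unused.

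All 24 libraries were fitted with 1 term per treatment in edgeR 4.0.16 (R 4.3.3; TMM scaling, filterByExpr, quasi-likelihood F test, Benjamini-Hochberg adjustment over 12529 genes, threshold 0.05), and TBT was contrasted with ROSI; DMSO and AGN194204 libraries only add to the estimate of the spread, with a common biological coefficient of variation of 5.24%. Standard errors are the log2 fold change over the root of F, and log2 CPM used a prior count of 2. A count of 0 allows 3 counts; this limit and all depth statements cover counting error only. The procedure was tested on simulated data. Named genes are the 12 largest differences in each direction among genes averaging log2 CPM 1 or more, no overlap between groups and a full symbol, up to 4 members per list and direction with the smallest adjusted p, and a fixed set of receptor and fat cell genes, some of which are left out; members and lists were chosen with earlier results of these data known. Replicate numbers were not taken to pair the libraries, and a pairing is not excluded (see the effect of settings). No pair of libraries within a group looked like 1 library deposited again (lowest chi-square per degree of freedom 1.39). Pairs that included TBT replicate 2 gave 3.41 to 4.84, against 1.46 to 2.4 for the other TBT pairs. Alternatives were other scalings (median ratio, ERCC), other filters on low counts, DESeq2 1.42.0, the 12 libraries alone, the replicate block and leaving out libraries. The deposited log2 table and the histone tables were not used.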

Additional observations from a re-analysis of the deposited data

Results flagged for a closer look

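In 17 of 372 groups of 6 libraries (4.57%), covering library measures, named genes and the 6 plotted list means in TBT and ROSI cells, 1 library stood apart from the other 5 by Dixon's test, in which chance sets 1 library apart in about 1 in 20 groups. The gap to the nearest library is given as a fraction of the group's range, and only fractions past the 95% critical value for 6 libraries are listed. In TBT cells, replicate 2 was the one apart in 4 groups. This library also stood apart over all tested genes, at 25.7 on principal component 2 (9.84% of the variance). The other TBT and ROSI libraries lay between -10.4 and 5.31 on it. In single measures, TBT replicate 2 stood apart as follows. It was highest for 2 matrix genes, Vcan at 270.4 CPM with the next library at 222 CPM (0.685) and Npnt at 113 CPM with the next at 100.1 CPM (0.709), and lowest for the chemokine gene Cxcl12 at 332 CPM, the next being 376 CPM (0.711). Its share of reads that could not be assigned to 1 gene was lowest as well, at 1.85% with the next library at 1.95% (0.636). Single other TBT libraries stood apart for the complement gene C4b (replicate 1, 10.7 CPM, 0.756), the interleukin 33 receptor gene Il1rl1 (replicate 5, 134 CPM, 0.729), the phosphodiesterase gene Pde8b (replicate 5, 178 CPM, 0.633), Plin4 (replicate 6, 235 CPM, 0.658) and Dio2 (replicate 4, 2.02 CPM, 0.627). The 235 CPM of Plin4 still exceeded all ROSI libraries. In ROSI cells, replicate 3 was lowest for Nr4a2 (52.3 CPM, 0.829), the aldehyde oxidase gene Aox1 (6.41 CPM with the next at 12.1 CPM, 0.782) and the collagen VI gene Col6a2 (164 CPM, 0.689), and replicate 4 was highest for the interferon-induced Gbp7 (63.6 CPM, 0.638) and Trim25 (232 CPM, 0.631). Col1a1 was lowest in replicate 2 (1728 CPM, 0.71), Mcm2 was lowest in replicate 6 (293 CPM, 0.664) and Pde1b was highest in replicate 1 (7.48 CPM, 0.631). Of these genes Pde8b lost its call when any of 6 single libraries was left out, and the other 15 kept theirs. Mcm2, Npnt and Vcan lost their calls with ERCC scaling, under which Pde8b changed sign.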

How the results depend on the processing

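With TMM scaling 1908 genes were higher and 1690 lower in TBT than in ROSI cells. Scaling to the ERCC spike-ins gave 172 lower and 2426 higher genes, the setting with the largest effect: it moved the median of all genes by 0.13, put 127 called genes on the other side of 0 and left 2070 of the 3598 calls. The cause was not tested; the spike-in share per 100 gene counts was lower in TBT libraries, as given above. The other settings kept both counts within 1.5 times: 1903 higher and 1699 lower with median-ratio scaling, 1903 and 1449 without a filter, 1841 and 1645 with a mean of at least 30 counts, 1838 and 1616 with DESeq2, and 1873 and 1534 with the 12 libraries alone. Leaving out 1 library at a time gave 1709 to 1952 higher and 1447 to 1774 lower genes, and leaving out TBT replicates 2 and 6 together, chosen after seeing the data because they stood apart on principal components, 1976 and 1728. The same-numbered TBT and ROSI libraries deviated from their group means with correlations of -0.00704 to 0.0757, so the numbers were not taken to pair them; with the replicate block 2021 genes were higher and 1849 lower, and of the genes named here Flt1 gained a call, as it did with DESeq2, and no other call changed. Of the 173 genes named, 28 lost their call, 1 gained one and 7 changed sign under ERCC scaling. Calls lost when libraries were left out are given beside the genes; without a filter Angptl2, Arl4c, Nr2f2, Pde8b and Serpinb6a also lost theirs, and with the 12 libraries alone, Arl4c and Pde8b did, as did Pde8b without TBT replicates 2 and 6. The changes of sign under ERCC scaling were Angptl2 to 0.023, Arl4c to 0.0019, Cebpb to 0.087, Nr2f2 to 0.032, Pde8b to 0.023, Psat1 to 0.015 and Rxra to 0.12. Leaving out 1 library moved Cebpb between -0.062 and 0.0039 and Rxra between -0.024 and 0.0036, and Rxra was 0.018 without TBT replicates 2 and 6; neither gene was called in any of these. The 24 libraries give a median standard error of 0.0779 on the log2 scale over the tested genes, which limits how small a difference could be called.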
